A study of Mus musculus with 87 samples.

Results

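MT2_Mm is the long terminal repeat (LTR) of MERVL, a murine endogenous retrovirus whose copies are spread over the mouse genome. The deposited repeat table listed 2641 MT2_Mm loci on chromosomes 1 to 19, X and Y, and each was assigned to a class by overlap of at least 1 base with a CUT&RUN peak of FLAG-tagged OBOX4 or FLAG-tagged DUX. An OBOX4 peak counted when at least 2 of 3 OBOX4 peak lists held it, and a DUX peak when the single DUX list held it. In this way 76 loci were bound by both factors (2.88%, 95% Wilson interval 2.31 to 3.59), 313 by DUX only (11.9%, 10.7 to 13.1), 128 by OBOX4 only (4.85%, 4.09 to 5.73) and 2124 by neither (80.4%, 78.9 to 81.9). These and all later intervals cover counting error only.

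Once an embryo reaches the 2-cell stage, MERVL is transcribed from its LTRs, and many genes of that stage (2C-genes) use an MT2_Mm copy as an alternative promoter, so that their transcripts start inside the retroviral LTR. DUX is a double homeodomain transcription factor that binds and activates MERVL LTRs, and OBOX4 is a homeodomain protein of the multicopy oocyte-specific homeobox family. H3K27ac marks active promoters and enhancers, H3K4me3 marks active promoters, and H3K27me3 is the mark laid down by Polycomb.

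Peak lists and RNA came from mESCs of the EB3 line and from mouse embryos. OBOX4 was mapped in a clonal mESC line in which doxycycline switches on 3×FLAG-tagged *Obox4* (3 lists), whose RNA was sequenced after 0, 12 and 48 h of induction (3 libraries each), and DUX in mESCs expressing 3×FLAG-DUX (1 list). WT and *Obox4* KO mESCs were profiled for H3K4me3, H3K27ac and H3K27me3 without and with PlaB (pladienolide B, a splicing inhibitor that turns mESCs into totipotent blastomere-like cells), with 3 lists for each mark and condition. RNA of PlaB-treated WT, *Obox4* KO, *Dux* KO and *Obox4*/*Dux* double KO mESCs was sequenced in 3 libraries each, the KO lines being single-cell clones and the double KO derived from the *Obox4* KO line. 2C-embryos from B6D2F1 mice received antisense oligonucleotides as zygotes: scramble, *Obox4*, *Dux*, both, or both with *Obox4* mRNA as a rescue (2 libraries each of pooled embryos). Morulae had scramble or both oligonucleotides (2 each), the double KD morulae being embryos selected for a morula-like shape. The last set was 6 blastomeres of 2C-embryos that all lacked *Dux* and were *Obox4* WT, Het or KO (2 each).

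Depth ran from 14283083 to 104864947 counts per library. The annotation held 1 *Dux* copy (*Duxf3*) and classed its near-identical *Obox4* copies as pseudogenes, so the latter were summed. In PlaB, *Duxf3* had 0 counts in the 6 libraries of *Dux* KO and double KO. It was at 4.73 to 5.78 CPM (counts scaled to library size) in WT and at 2.42, 3.11 and 5.45 CPM in *Obox4* KO. The *Obox4* copies were at 14.7 to 16.1 CPM in WT, 0.0774 to 0.130 in *Dux* KO and 0 to 0.192 in double KO. In *Obox4* KO the copies were at 3.92, 3.31 and 11.7 CPM, replicate 3 being the highest for them and for *Duxf3*. In 2C-embryos *Duxf3* was at 6.49 and 7.68 CPM with scramble and 1.93 to 3.86 CPM after *Dux* or double KD, and the *Obox4* copies at 67.3 and 72.7 CPM with scramble, 43.0 and 40.5 CPM after double KD and 50.8 and 46.3 CPM after *Dux* KD, which had no *Obox4* oligonucleotide. In these counts some groups did not show the loss that their label names: the *Obox4* copies were at 66.7 and 82.7 CPM in the 2C-embryos labelled *Obox4* KD and at 14.0 and 27.9 CPM in the blastomeres labelled *Obox4* KO against 20.5 and 30.4 in those labelled WT, *Duxf3* was at 8.16 and 5.78 CPM in the rescue, and in morulae labelled double KD both were above scramble (3.60 and 4.57 CPM against 0.182 and 0.137 for *Obox4*). The KO removed only the *Obox4* cluster, whereas the sum also takes in annotated copies outside it. The paper genotyped the KO by PCR and reported the knockdown by RNA-seq and immunofluorescence. The sum therefore cannot show whether the targeted copies were lost. Summed pluripotency markers were at 1350 to 3158 CPM in the PlaB libraries and 297 to 347 CPM in 2C-embryos.

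MT2_Mm copies resemble each other closely, which bears on every class. Of 2315 loci of 400 to 600 bases, called full-length here, 1057 (45.7%) had exactly the sequence of another locus, and the median identity to the majority LTR sequence was 97.8%. Reads from such copies have no unique place, so a peak at 1 copy may hold reads of another, and the class of a single locus is less certain than the share of a class.

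The LTRs printed here show where both recognition sequences lie. The DUX core was searched as GATTNAATC, and the OBOX4 core as GGGAT followed by C or T, A or T, and A or G, on both strands. The latter is part of the motif that the study derived from the strongest peaks of this same OBOX4 mapping, so its presence at OBOX4-bound loci is not independent of the binding data. Both are in capitals in the first 300 bases of 3 loci, read on the strand of the LTR from the GRCm38 RefSeq genome. The first is the locus of 400 to 600 bases with the highest enrichment among those bound by both (chr1:85106228-85106527, plus strand, in an exon of the non-coding *A530040E14Rik*), the second the highest among those bound by DUX only (chr5:26032031-26032330, plus strand, outside annotated genes), and the third the first MERVL-flanked locus with both cores and neither factor (chr1:5250195-5250494, minus strand, outside annotated genes).
bound by both: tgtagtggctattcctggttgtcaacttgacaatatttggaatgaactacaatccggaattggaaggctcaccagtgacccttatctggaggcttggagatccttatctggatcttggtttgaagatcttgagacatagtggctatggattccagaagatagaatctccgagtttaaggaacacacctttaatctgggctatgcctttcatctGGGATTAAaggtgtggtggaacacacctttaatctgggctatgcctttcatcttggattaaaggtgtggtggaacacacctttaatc
bound by DUX only: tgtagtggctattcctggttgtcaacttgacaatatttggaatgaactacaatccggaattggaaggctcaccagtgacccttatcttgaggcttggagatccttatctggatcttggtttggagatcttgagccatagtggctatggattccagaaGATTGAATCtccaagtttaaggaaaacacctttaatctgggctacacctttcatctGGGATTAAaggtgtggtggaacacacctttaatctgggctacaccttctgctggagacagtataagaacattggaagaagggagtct
bound by neither: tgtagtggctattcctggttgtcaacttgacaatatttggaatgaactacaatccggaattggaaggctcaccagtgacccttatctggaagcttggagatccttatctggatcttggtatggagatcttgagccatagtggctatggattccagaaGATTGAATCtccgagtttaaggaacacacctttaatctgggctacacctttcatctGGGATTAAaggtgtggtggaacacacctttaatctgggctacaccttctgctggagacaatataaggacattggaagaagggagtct
The locus bound by both carried no DUX core and had 78.7% identity to the majority LTR, against 97.0% for the DUX-only locus and 98.8% for the locus without a peak. Its printed part held 1 of its 2 OBOX4 cores.

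On the majority LTR of 493 bases, found at 665 loci of that length, the DUX core occupied bases 158 to 166 and the OBOX4 core bases 214 to 221, with 47 bases between them. Neither core alone separated the classes, because most loci had both: the DUX core was present in 96.1% of loci bound by both, 99.0% of DUX-only, 90.6% of OBOX4-only and 87.2% of unbound loci, and the OBOX4 core in 98.7%, 89.8%, 92.2% and 75.0%. In windows of equal length 2000 bases upstream of the loci, the shares over all classes were 0.719% and 10.2%. Unbound loci were more often short, with 85.7% full-length against 90.8 to 98.1% in the bound classes, and among full-length unbound loci the shares were 96.7% and 83.1%.

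Binding differed between copies with different letters at the cores. Among full-length loci, DUX bound 362 of 2062 with the word GATTGAATC (17.6%, 16.0 to 19.3) and 7 of 139 with GATTAAATC (5.04%, 2.46 to 10.0), whereas OBOX4 bound 7.76% and 7.91% of the same loci. OBOX4 bound 177 of 1931 loci with GGGATTAA (9.17%, 7.96 to 10.5), 2 of 156 in which that stretch was deleted (1.28%, 0.352 to 4.55) and 2 of 88 in which only an A of it was left (2.27%, 0.625 to 7.91). DUX was also lower at these loci, at 17.8% (16.1 to 19.5), 10.3% (6.41 to 16.0) and 1.14% (0.201 to 6.16). Of 14 loci with AGGATTAA in its place, OBOX4 bound 0 and DUX bound 9 (64.3%), but 7 of these 9 lie in 1 array on chromosome 10 between positions 104142684 and 104194225, beside genes of the *Gm4340* family. These shares are descriptions of copies that share descent, and no test was run across them.

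The windows around both core positions in loci bound by DUX only show those 3 variants, with capitals marking the cores that remained.
chr13:93197179-93197233: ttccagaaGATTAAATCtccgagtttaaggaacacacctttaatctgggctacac
chr10:104185379-104185458: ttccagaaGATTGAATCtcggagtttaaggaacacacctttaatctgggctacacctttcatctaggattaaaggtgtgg
chr17:94841943-94841997: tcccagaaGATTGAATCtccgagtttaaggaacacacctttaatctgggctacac
The first (minus strand) carries GATTAAATC and had a DUX enrichment over the local background of 9.51, the second (plus strand) carries AGGATTAA and had 13.5, and the third (plus strand) lacks the OBOX4 core and had 9.81. None of the 3 OBOX4 lists had a peak at any of them. The first window lacks the OBOX4 core as well, so it differs at both core positions.

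The number of OBOX4 cores in a locus went with OBOX4 binding. Of 347 full-length loci with no copy of the core, 8 were bound by OBOX4 (2.31%, 1.17 to 4.48), of 1889 with 1 copy 156 (8.26%, 7.10 to 9.59), of 73 with 2 copies 20 (27.4%, 18.5 to 38.6) and of 6 with 3 copies 3 (50.0%, 18.8 to 81.2). The last group is small, and the order held without it. Each of the 3 OBOX4 lists gave the same order, with 21.7%, 7.89% and 8.05% at 1 copy and 34.2%, 24.7% and 19.2% at 2 copies. The peaks were also higher, with a median enrichment of 16.2, 12.9 and 14.9 at loci with 2 copies against 4.88, 4.96 and 4.53 at loci with 1. The few bound loci with no copy broke this order, with medians of 6.04, 5.46 and 5.26 and a highest value of 95.1 in list 1. DUX binding did not follow the OBOX4 copies, at 9.22%, 17.8%, 8.22% and 16.7% from none to 3.

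**Figure D1:**
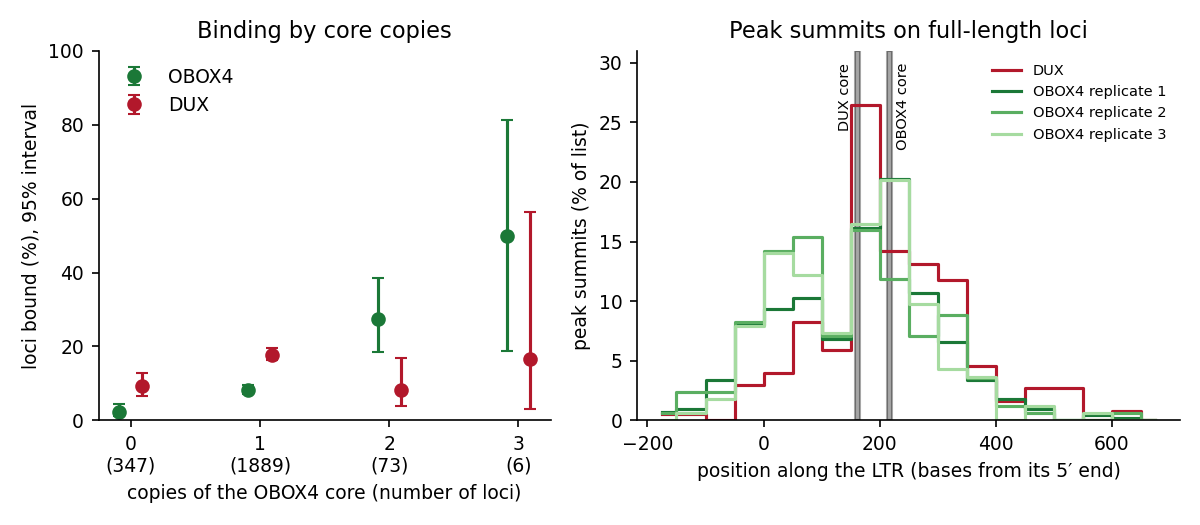
Left, percent of full-length MT2_Mm loci bound by OBOX4 or DUX by number of OBOX4 core copies (347, 1889, 73 and 6 loci), with 95% Wilson intervals. Right, position of peak summits along the LTR in 50-base bins, as percent of each list, with the DUX core at bases 158 to 166 and the OBOX4 core at 214 to 221 as grey bars; OBOX4 binding rises from 2.31% to 50.0% with the copies, and summits of both factors spread over the 5′ part of the LTR.

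Peak summits of both factors were spread along the LTR. Between bases 108 and 271, which spans both cores with 50 bases on either side and makes up 33.3% of the majority LTR, fell 58.6% of DUX summits at loci bound by both and 50.5% at DUX-only loci, and 36.7 to 46.9% of OBOX4 summits over the 3 lists at the OBOX4-bound classes. The median summit was at base 204 and 201 for DUX and between 124 and 182 for OBOX4.

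The highest OBOX4 enrichment far exceeded the rest of the class. At chr1:85106228-85106767, the LTR bound by both that is printed above, OBOX4 enrichment was 142, 148 and 112 in the 3 lists, against a median of 5.91, 5.29 and 5.05 for loci bound by both, and DUX enrichment was 8.57. The second, chr1:85603758-85604244, a 5′ LTR with 2 OBOX4 cores and no DUX core, lies 3380 bases from the start of *Sp140* and 4941 from that of *Sp110*, and had 29.5, 31.8 and 25.8 for OBOX4 and 9.35 for DUX. Both of these loci carried H3K27me3 in 3 of 3 lists under all 4 conditions and no H3K27ac or H3K4me3 in any list. The third, chr12:118924403-118924960, had 3 OBOX4 cores, OBOX4 enrichment of 22.4, 18.8 and 16.4, and no peak of the 3 marks.

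Around the core positions, the 3 OBOX4-only loci with the highest enrichment read as follows.
chr9:108653750-108653779: ttccagaaGATTAAATCtcggagtttaagg
chr1:83031282-83031414: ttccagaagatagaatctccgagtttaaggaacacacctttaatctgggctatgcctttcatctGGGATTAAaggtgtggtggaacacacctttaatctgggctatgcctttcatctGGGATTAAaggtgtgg
chr13:67149120-67149200: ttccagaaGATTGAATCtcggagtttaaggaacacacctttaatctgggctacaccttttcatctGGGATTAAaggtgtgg
The chr9 locus (minus strand, exonic) had enrichment of 95.1, 92.0 and 79.8 without an OBOX4 core, and was the only 1 of the 9 top loci to carry H3K4me3 and H3K27ac in all 12 lists of each mark. The chr1 locus, in an intron of *Slc19a3*, a thiamine transporter, had 78.9, 80.4 and 67.8 and a tandem repeat of the core region with 2 OBOX4 cores. The chr13 locus, outside annotated genes, had 48.6, 40.3 and 34.7 with 1 copy of each core. At the DUX position the chr1 locus and both strongest loci bound by both read GATAGAATC, a word found at 3 full-length loci in all, and these 3 were bound by OBOX4, 2 of them also by DUX.

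The DUX-only loci had a narrower range of enrichment. Their 3 highest, chr5:26032031-26032522, chr3:109863087-109863580 and chr7:38467882-38468370, had enrichment of 17.6, 17.0 and 13.6 with 1 copy of each core, no adjoining MERVL body and no OBOX4 peak in any list. The 3 highest OBOX4-only loci had no adjoining MERVL body either. Over the whole classes, 31.6% of DUX-only and 50.8% of OBOX4-only loci had none. DUX enrichment spanned 4.81 to 17.6 over the class (median 8.01), whereas OBOX4 enrichment at OBOX4-only loci spanned 2.45 to 95.1 in list 1.

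DUX bound a larger share of 5′ than of 3′ LTRs of the provirus, and OBOX4 did not. DUX bound 155 of 721 LTRs at the 5′ end of a MERVL internal sequence (21.5%, 18.7 to 24.6), 99 of 756 at the 3′ end (13.1%, 10.9 to 15.7) and 133 of 1154 with no adjoining internal sequence (11.5%, 9.81 to 13.5). OBOX4 bound 5.41% (3.98 to 7.31), 8.73% (6.92 to 11.0) and 8.58% (7.10 to 10.3). Accordingly 42.8% of DUX-only loci and 14.1% of OBOX4-only loci were 5′ LTRs, against 27.6% of loci bound by both and 25.8% of unbound loci. OBOX4 list 1 stood apart, with 27.1% of 3′ LTRs bound against 8.60% and 7.14% in lists 2 and 3. At 5′ LTRs lists 1 to 3 had 16.9%, 4.85% and 6.66%, so list 3 hardly differed between the ends.

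The choice of OBOX4 lists set the size of the OBOX4 classes. List 1 had 27713 peaks and covered 478 loci, against 20417 and 22263 peaks and 196 and 194 loci for lists 2 and 3. With lists 2 and 3 alone the classes held 44, 345, 71 and 2181 loci, and 83 of the 313 DUX-only loci and 274 of the 2124 unbound loci had a peak in 1 OBOX4 list. Few loci sat on the edge of the rule: 2 DUX-bound and 2 OBOX4-bound loci overlapped their peak by under 50 bases, with a smallest overlap of 43 and 9 bases, and 2 loci without each factor had a peak of it within 100 bases.

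Bound loci were somewhat more often in genes. A locus overlapped an exon in 13.2% of loci bound by both (7.31 to 22.6), 10.9% of DUX-only, 10.9% of OBOX4-only and 7.49% of unbound loci (6.44 to 8.68), and 57.9%, 53.4%, 56.2% and 63.8% lay outside genes. An annotated gene start fell inside the LTR in 7.89%, 8.63%, 7.03% and 5.08%. The intervals of the 3 bound classes overlapped each other for all of these. They also overlapped those of unbound loci, except for DUX-only loci outside genes (47.8 to 58.8 against 61.7 to 65.8).

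H3K27ac separated the classes most clearly. In WT mESCs without PlaB, a peak of the mark was present on 10.5%, 11.8% and 11.8% of loci bound by both in the 3 lists, 0.639%, 0.639% and 1.60% of DUX-only, 5.47%, 7.81% and 7.81% of OBOX4-only and 0.141%, 0.188% and 0.471% of unbound loci. With PlaB these became 34.2%, 46.1% and 53.9% of loci bound by both, 14.7%, 18.8% and 23.0% of DUX-only, 22.7%, 26.6% and 32.0% of OBOX4-only and 6.26%, 6.12% and 7.96% of unbound loci. Every class was higher with PlaB in each WT list than in any WT list without it.

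In *Obox4* KO mESCs PlaB left no such difference. H3K27ac was on 9.21% of loci bound by both in each list without PlaB and on 9.21%, 9.21% and 7.89% with PlaB. DUX-only loci, which have no OBOX4 peak by the rule, were at 1.92%, 0.958% and 0.639% with PlaB, OBOX4-only loci at a mean of 7.03% and unbound loci at 0.424%. In PlaB the KO lists lay below every WT list in all 4 classes.

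Taking PlaB as a stratum, the H3K27ac share of loci bound by both was 28.1% in WT and 8.99% in *Obox4* KO, a difference of −19.1 points (exact two-sided permutation test over 12 lists, p = 0.00500, adjusted p = 0.0400 over 24 tests, the smallest p that the permutations can give being 0.00500). The differences of −8.95 points for DUX-only, −10.2 for OBOX4-only and −3.17 for unbound loci did not pass (exact permutation test, adjusted p = 0.133, 0.133 and 0.156). The pass at loci bound by both also needed the lists without PlaB, at 7 of 76 loci in each KO list against 8, 9 and 9 in WT. In the other classes the lists without PlaB overlapped between genotypes, so a pass in 1 class alone does not show a difference between classes. The PlaB effect with genotype as stratum passed for no class, at +16.4, +9.16, +10.2 and +3.33 points (adjusted p = 0.194, 0.133, 0.133 and 0.0900, exact permutation test). This statistic averages WT differences of +33.3, +17.9, +20.1 and +6.51 points with KO differences of −0.439, +0.426, +0.260 and +0.141 points. With the KO stratum near 0, not passing says little about the PlaB effect within WT. Within PlaB alone, KO minus WT was −36.0, −17.7, −20.1 and −6.36 points, and within lists without PlaB −2.19, −0.213, −0.260 and 0.0157 points, where 3 against 3 lists cannot go below p = 0.100 in an exact permutation test. The effect of PlaB differed between genotypes by 33.8, 17.5, 19.8 and 6.37 points (adjusted p = 0.133 each over 12 exact permutation tests, added after the values were seen). The call at loci bound by both was lost at −6.36 points with peaks of a −log10 q of at least 5, at −16.0 with equal numbers of peaks in each list, at −18.0 with peaks within 500 bases, and at −19.1 with the replicate number as a block or without any 1 of the 3 KO lists without PlaB. H3K27ac lists held 33127 to 40913 peaks in WT with PlaB and 49794 to 62836 in KO with PlaB, so the lists with the lower share were the longer ones. The KO lines are single-cell clones, so neither these tests nor the later comparisons of KO lines can tell genotype from clone. RNA of trophectoderm markers, given below, also differed between the lines in PlaB, and its part in the mark results was not tested.

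**Figure D2:**
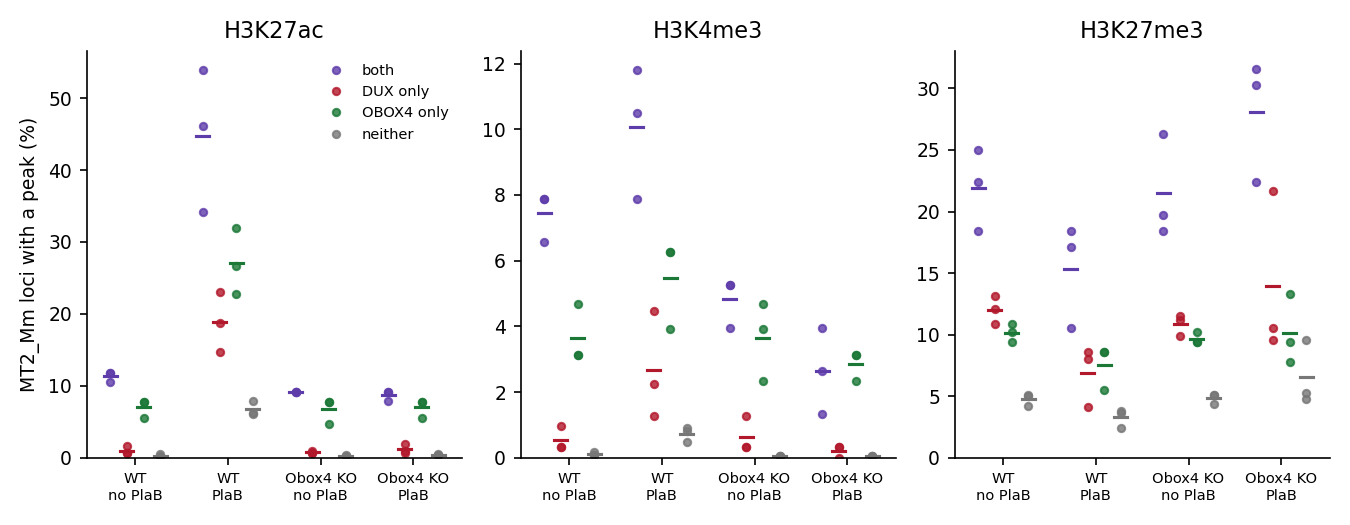
Percent of MT2_Mm loci with a peak of H3K4me3, H3K27ac or H3K27me3 in WT and *Obox4* KO mESCs without and with PlaB, by binding class, each dot being 1 peak list and each line the mean of 3. H3K27ac on loci bound by both rises from a mean of 11.4% to 44.7% with PlaB in WT and stays at 8.77% in KO.

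The loci that gained H3K27ac can be named by class. A peak in at least 2 of 3 WT lists with PlaB and in none without was found at 24 loci bound by both (31.6% of the class), 45 DUX-only (14.4%), 19 OBOX4-only (14.8%) and 78 unbound loci (3.67%). None of these loci had the mark in 2 or more KO lists with PlaB, and 24, 45, 18 and 73 of them had it in no such list. By place in the provirus, the mean share with H3K27ac in WT with PlaB was 46.0% at 5′ LTRs, 49.2% at 3′ LTRs and 41.2% at those without a MERVL body among loci bound by both, 18.9%, 16.2% and 20.5% among DUX-only loci, and 31.5%, 27.4% and 25.6% among OBOX4-only loci. Among unbound loci it was 7.79% (6.02 to 10.0 over the 3 lists), 8.12% (7.84 to 8.66) and 5.30% (4.60 to 6.17), the lists of 3′ LTRs lying above those without a MERVL body. These counts were chosen after the values were seen.

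H3K4me3 was rarer on MT2_Mm, and its fall in *Obox4* KO passed the test at 2 classes. At loci bound by both it was on 7.89%, 7.89% and 6.58% of loci in WT, 10.5%, 11.8% and 7.89% in WT with PlaB, 3.95%, 5.26% and 5.26% in KO and 2.63%, 3.95% and 1.32% in KO with PlaB. With PlaB as stratum the KO difference was −5.04 points (8.77% to 3.73%, exact permutation test, adjusted p = 0.0400), and at unbound loci −0.377 points (0.424% to 0.0471%, adjusted p = 0.0400, exact permutation test). Counts without PlaB were small, at 6, 6 and 5 of 76 loci bound by both in WT against 3, 4 and 4 in KO. At unbound loci they were 2, 2 and 4 of 2124 against 1 in each KO list. With PlaB the KO lists lay below every WT list in all 4 classes, so the 2 calls do not set these classes apart. Both calls were lost when any 1 of the KO lists without PlaB was left out, at −5.15 to −4.82 and at −0.377 points, and under the equal numbers, the wider peaks and the block, at −5.04 to −3.73 and −0.683 to −0.337 points. Few loci with H3K27ac in at least 2 WT lists with PlaB also had H3K4me3: 6 of 35 bound by both, 1 of 49 DUX-only, 4 of 30 OBOX4-only and 3 of 84 unbound loci. These include loci that held H3K27ac without PlaB, and the overlap was not counted for the gained loci alone.

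H3K27me3 had another order. Loci bound by both were highest in 12 of 12 lists, as for H3K27ac, whereas for H3K4me3 they were highest in 9 of 12. Their H3K27me3 shares were 22.4%, 25.0% and 18.4% in WT, 18.4%, 17.1% and 10.5% in WT with PlaB and 22.4%, 31.6% and 30.3% in KO with PlaB. OBOX4-only loci exceeded DUX-only loci in 2 of 12 lists, whereas for H3K27ac and H3K4me3 they did so in 12 of 12. No effect on H3K27me3 passed the test, the lowest adjusted p being 0.133 (exact permutation test) for +1.65 points at unbound loci in KO. That difference was 0.891 points without KO list 3 with PlaB, which stood apart at 9.56% of unbound loci against 5.23% and 4.80% in the other lists of that condition. Of the 15 loci bound by both with H3K27me3 in WT without PlaB, 3 had H3K27ac in WT with PlaB, and the same held for 7 of 29 DUX-only, 3 of 11 OBOX4-only and 6 of 67 unbound loci.

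MT2_Mm RNA could not be split by class, because the repeat table sums all loci of a name. Levels are in CPM of that table, and a repeat name was called at an adjusted p of at most 0.01 and a fold change of at least 2 (log2 of 1) by edgeR's quasi-likelihood test with Benjamini-Hochberg adjustment over all repeat names, a p-value that measures the spread between these libraries. In bulk libraries, fewer cells of a type and less RNA per cell cannot be told apart.

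In mESCs, *Obox4* induction raised MT2_Mm RNA at 48 h. Libraries had 1654, 1319 and 1295 CPM at 0 h, 1654, 2118 and 2304 CPM at 12 h and 4328, 3193 and 2915 CPM at 48 h, so that 48 h lay above both other times and 12 h touched 0 h in 1 library. The log2 fold change was 0.51 (SE 0.16, adjusted p = 0.895) at 12 h, where 0% of 1015 repeat names were called (edgeR's quasi-likelihood test, 37 at an unadjusted p under 0.05, and 0 called by DESeq2), and 1.29 (SE 0.16, adjusted p = 0.00511) at 48 h, where 0.296% were. The call at 48 h was lost on leaving out any of the 0 h libraries or 48 h replicate 1 or 2, with 1.09 to 1.39, and kept without 48 h replicate 3, with 1.40.

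In PlaB-treated mESCs, MT2_Mm RNA fell in both KOs. It was at 11772, 12360 and 12207 CPM in WT, 2980, 3098 and 6045 CPM in *Obox4* KO, 746, 781 and 765 CPM in *Dux* KO and 902, 807 and 1445 CPM in double KO. The 4 groups did not overlap, with *Dux* KO lowest and double KO next to it. The log2 fold change was −1.58 (SE 0.27, adjusted p = 0.00405, edgeR) in *Obox4* KO, −3.99 (SE 0.29, adjusted p = 4.20e-06) in *Dux* KO and −3.53 (SE 0.29, adjusted p = 9.16e-06) in double KO, comparisons that called 1.23%, 3.80% and 4.84% of 1054 repeat names. Double KO against *Dux* KO was 0.45 (SE 0.26, adjusted p = 0.286, with 0.474% called), ran from 0.16 without double KO replicate 3 to 0.61 without double KO replicate 2, and reversed to −0.19 with the gene table's scaling. The call in *Obox4* KO was lost without *Obox4* KO replicate 1 or 2 or any WT replicate, at −1.60 to −1.41. It was kept without *Obox4* KO replicate 3, at −1.99, the replicate with the highest level of the *Obox4* copies and of *Duxf3*. The part of the *Duxf3* level in the results of *Obox4* KO was not tested. Trophectoderm markers moved with the KOs, with a summed level of 120 to 122 CPM in WT, 370 to 380 in *Dux* KO, 504 to 1713 in *Obox4* KO and 2880 to 3640 in double KO, and their part in the RNA results was not tested.

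**Figure D3:**
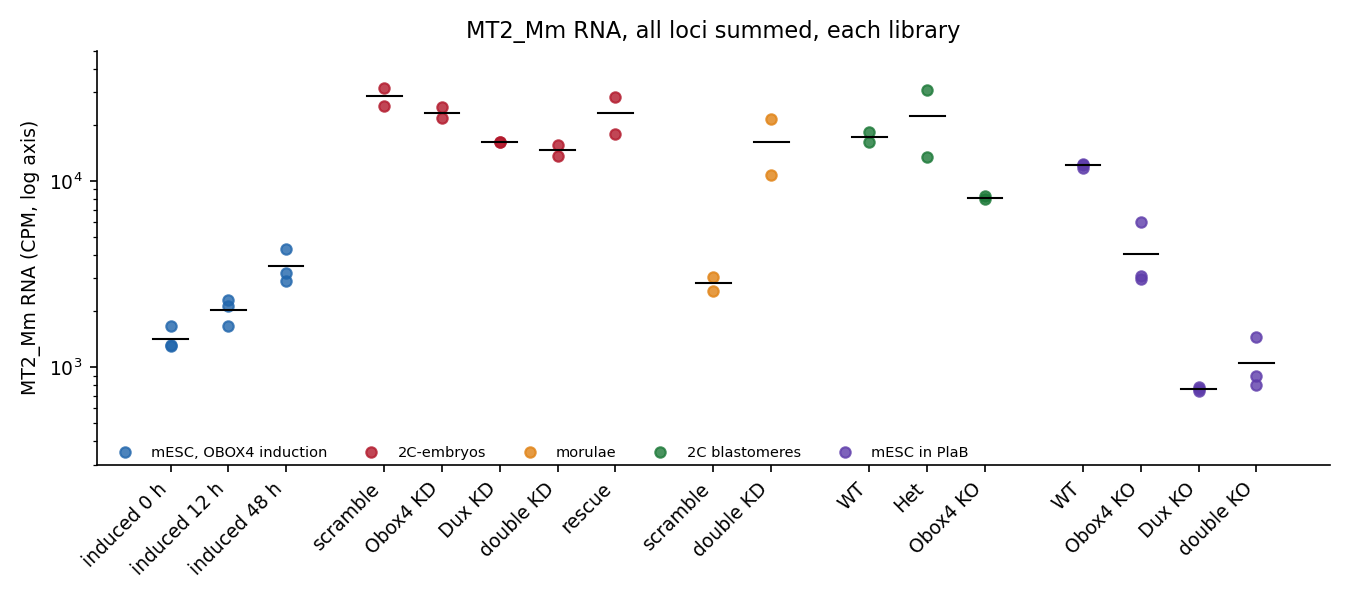
MT2_Mm RNA in CPM of the repeat table (log axis) for each library of the 5 RNA experiments, with bars at the group means. PlaB WT libraries sit between 11772 and 12360 CPM and *Dux* KO libraries between 746 and 781 CPM.

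In 2C-embryos, where MT2_Mm RNA was highest, its falls stayed under the fold threshold. Scramble embryos had 31529 and 25406 CPM, those labelled *Obox4* KD 24887 and 21678, *Dux* KD 16150 and 16186, double KD 13629 and 15602 and the rescue 17872 and 28351. All libraries of the 3 KD groups were below both scramble libraries, and the rescue overlapped scramble. The log2 fold changes from scramble were −0.29 (SE 0.17, adjusted p = 0.490, edgeR) for the embryos labelled *Obox4* KD, −0.82 (SE 0.17, adjusted p = 0.0123) for *Dux* KD, −0.96 (SE 0.17, adjusted p = 0.00212, fold under the threshold) for double KD and −0.30 (adjusted p = 0.313) for the rescue. These comparisons called 0% (152 names at an unadjusted p under 0.05, and 0 called by DESeq2), 0.284%, 1.99% and 0.378% of 1057 repeat names. Double KD differed from *Dux* KD by −0.15 (adjusted p = 0.784, with 0% called, 132 names at an unadjusted p under 0.05, and 1 called by DESeq2), and the rescue from double KD by 0.66 (adjusted p = 0.0275, with 0.473% called). The rescue values rested on single libraries, since the difference from double KD was 0.29 without rescue replicate 2 and 0.95 without rescue replicate 1, and that from scramble −0.67 and −0.01. Without scramble replicate 2 the double KD fell by 1.11 on the log2 scale and was called (adjusted p = 0.0022).

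In later or single-cell samples the spread was wide. Morulae labelled double KD had 10768 and 21418 CPM against 3056 and 2574 CPM with scramble, a log2 fold change of 2.52 (SE 0.39, adjusted p = 0.146, edgeR, with 0% of 1052 names called, 155 at an unadjusted p under 0.05, and 20 called by DESeq2), which was called without double KD replicate 1 (2.92, adjusted p = 0.00735). Blastomeres from 2C-embryos lacking *Dux* had 18281 and 16124 CPM when *Obox4* WT, 30931 and 13478 when Het and 8040 and 8252 when labelled KO. Both blastomeres labelled KO were below all others, but the log2 fold change of −1.08 (SE 0.31, adjusted p = 0.156, edgeR, with 0.300% of 999 names called) did not pass, and Het against WT gave 0.37 (adjusted p = 0.999, with 0% called, 49 names at an unadjusted p under 0.05, and 1 called by DESeq2).

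Genes with their annotated start within 10000 bases of an MT2_Mm locus were taken with the class of the nearest locus: 42 near loci bound by both, 99 near DUX-only, 76 near OBOX4-only and 789 near unbound loci. After 48 h of *Obox4* induction, 3.37% of all 18625 genes tested were called higher (edgeR's quasi-likelihood test, adjusted p at most 0.01, fold at least 2). Among genes near the loci 3 of 20 tested were called for both factors, 11 of 31 for DUX only, 8 of 45 for OBOX4 only and 27 of 239 for neither. The median log2 fold change was 0.66, 1.36, 0.11 and 0.06, against −0.01 over all genes. The largest share was near DUX-only loci. *Duxf3* itself was at 0.652, 0.280 and 0.326 CPM at 0 h and at 1.51, 1.53 and 0.792 CPM at 48 h. These levels rest on 8 to 16 and 23 to 47 counts per library. The part of *Duxf3* in the calls near the loci was not tested. On leaving out any 1 library the 8 genes near OBOX4-only loci became 2 or 3, and the 27 near unbound loci became 15 to 20, with 15 without 0 h replicate 2, 17 without 0 h replicate 3 and 16 without 48 h replicate 2.

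In double KD 2C-embryos, 3.16% of 23085 genes were called lower. Near the loci it was 5 of 33 for both, 24 of 67 for DUX only, 3 of 63 for OBOX4 only and 114 of 511 for neither, with medians of −0.17, −0.61, −0.10 and −0.54 against 0.03 over all genes. The differences between classes were not tested. The 5 genes near loci bound by both became 3 on leaving out any 1 of the 4 libraries.

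In PlaB-treated mESCs, *Obox4* KO lowered 3.96% of 22328 genes and *Dux* KO 4.70%. Near loci bound by both, 15 of 28 were called lower in *Obox4* KO and 17 of 28 in *Dux* KO, near DUX-only loci 21 of 54 and 38 of 54, near OBOX4-only loci 6 of 59 and 18 of 59, and near unbound loci 88 of 357 and 143 of 357. The medians were −1.69, −1.76, −0.44 and −0.69 in *Obox4* KO and −3.66, −5.46 (with genes at 0 counts set to their bound), −0.66 and −0.82 in *Dux* KO, against 0.02 and 0.00 over all genes. Both comparisons share the WT libraries. Leaving out single libraries moved the *Obox4* KO counts to 9 to 25 for DUX only, where *Obox4* KO replicates 1 and 2 and each WT replicate gave 13 or fewer, to 4 to 13 for OBOX4 only, with 13 without *Obox4* KO replicate 3, and to 57 to 108 for neither, with 57 and 58 without WT replicate 1 and 2.

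**Figure D4:**
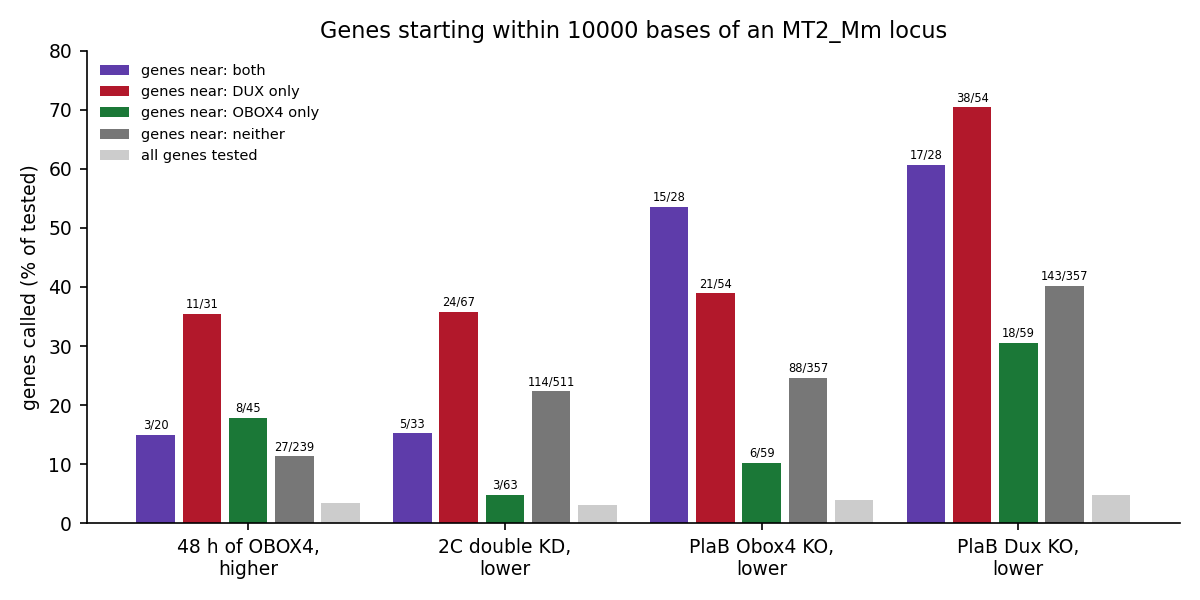
Percent of tested genes called in 4 comparisons among genes with a start within 10000 bases of an MT2_Mm locus of each class, beside all genes tested. In the 2 PlaB comparisons and in double KD 2C-embryos genes near OBOX4-only loci have the lowest share of the 4 classes (10.2%, 30.5% and 4.76%).

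Nearby genes were also split by H3K27ac on the locus in WT with PlaB. Near loci bound by both, 7 of 11 genes with the mark in at least 2 lists and 5 of 8 with it in none were called lower in *Obox4* KO. Near DUX-only loci it was 4 of 13 and 9 of 28, near OBOX4-only loci 0 of 25 and 4 of 21, and near unbound loci 3 of 26 and 66 of 270. This split was made after the values were seen.

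Of the named genes near loci bound by both, *Sp110* and *Sp140*, which encode nuclear body proteins of the speckled protein family and share the locus at chr1:85603758-85604244, rose with *Obox4* induction and fell in PlaB-treated *Obox4* KO. *Sp110* libraries had 0.448, 0.140 and 0.359 CPM before induction and 2.38, 2.33 and 2.27 CPM 48 h after it (log2 fold change 2.88, SE 0.33, adjusted p = 2.93e-04, edgeR). In PlaB it was at 21.9, 20.7 and 20.6 CPM in WT, 1.66, 1.35 and 2.54 in *Obox4* KO, 0.519, 0.542 and 0.536 in *Dux* KO and 0.192, 0.102 and 0 in double KO, 4 groups without overlap. The fall was −3.52 (SE 0.28, adjusted p = 7.66e-06) in *Obox4* KO and −5.30 (SE 0.31, adjusted p = 2.37e-07) in *Dux* KO. Double KO was lower than *Dux* KO by −2.10 (adjusted p = 0.00498), a call lost without any 1 *Dux* KO replicate or double KO replicate 2 (−2.12 to −1.93). In 2C-embryos *Sp110* was far higher, at 226 and 218 CPM with scramble, 213 and 238 in those labelled *Obox4* KD, 209 and 207 after *Dux* KD, 149 and 160 after double KD and 224 and 213 in the rescue, and its fall of −0.52 after double KD (adjusted p = 2.38e-05) was under the fold threshold. *Sp140* went from 0.407, 0.315 and 0.228 CPM to 1.41, 1.40 and 1.31 CPM at 48 h (2.12, SE 0.41, adjusted p = 0.00658, edgeR). In PlaB it was at 5.63, 5.45 and 6.21 CPM in WT and 0.925, 0.746 and 1.21 CPM in *Obox4* KO (−2.59, SE 0.34, adjusted p = 2.06e-04). In 2C-embryos *Sp140* was at 24.1 and 23.3 CPM with scramble and 22.1 and 19.9 CPM after double KD (−0.17, adjusted p = 0.320).

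*A530040E14Rik*, a non-coding gene whose start lies 282 bases from the LTR with the highest OBOX4 enrichment, was at 0.204, 0.175 and 0.0652 CPM at 0 h and 2.50, 2.04 and 2.07 CPM at 48 h (log2 fold change 3.89, SE 0.41, adjusted p = 1.76e-04, edgeR). In PlaB it was at 8.96, 10.6 and 9.08 CPM in WT and 0.898, 0.911 and 1.58 CPM in *Obox4* KO (−3.09, SE 0.39, adjusted p = 1.46e-04), with 0, 0.0194 and 0.0824 CPM in *Dux* KO. The groups did not overlap. This LTR had no H3K27ac peak in any list, so the RNA changed beside a locus at which the mark was not called.

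*Olfr1425* is an olfactory receptor gene 8373 bases from a locus bound by both on chromosome 19. Among the named genes near bound loci it had the largest fall from *Dux* KD to double KD in 2C-embryos. Its level was 5.48 and 7.40 CPM with scramble, 2.77 and 4.34 in embryos labelled *Obox4* KD, 2.14 and 1.71 after *Dux* KD, 0.590 and 0.393 after double KD and 2.44 and 2.23 in the rescue. Double KD was −3.65 (SE 0.31, adjusted p = 1.01e-07, edgeR) from scramble and −1.93 (adjusted p = 0.00117) from *Dux* KD, and the rescue 2.20 (adjusted p = 5.93e-05) above double KD. The difference between double and *Dux* KD missed the threshold without *Dux* KD replicate 1 or either double KD replicate (−2.28 to −1.73). That comparison called lower 1 of 33 genes near loci bound by both and 3 of 67 near DUX-only loci. Near OBOX4-only loci it was 0 of 63 and near unbound loci 11 of 511, against 0.377% of all 23085 genes tested.

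Near DUX-only loci, *Zscan4d*, a 2C-gene that takes part in telomere maintenance in mESCs, was not detected in PlaB without *Dux*. It lies 3787 bases from a 5′ LTR on chromosome 7. It was at 3.54, 2.42 and 2.18 CPM at 0 h and 21.1, 13.6 and 13.8 CPM at 48 h (log2 fold change 2.58, SE 0.24, adjusted p = 1.04e-04, edgeR). In PlaB it was at 194, 211 and 178 CPM in WT, 86.4, 85.7 and 220 CPM in *Obox4* KO and 0 in every *Dux* KO and double KO library, at least 9499-fold and 5262-fold lower than WT (floor of 3 counts over the 3 libraries). *Obox4* KO overlapped WT (−0.58, SE 0.34, adjusted p = 0.251). In 2C-embryos it was at 176 and 172 CPM with scramble, 162 and 136 in those labelled *Obox4* KD, 44.0 and 55.8 after *Dux* KD, 24.8 and 28.6 after double KD and 59.6 and 84.9 in the rescue, with double KD −2.71 (SE 0.15, adjusted p = 1.01e-09) from scramble and the rescue 1.44 (adjusted p = 2.02e-06) above double KD.

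*Gm44739*, whose annotated start lies inside a DUX-only 5′ LTR on chromosome 7, showed the same order at lower levels: 0.407, 0.455 and 0.391 CPM at 0 h, 2.41, 2.37 and 1.58 CPM at 48 h (2.33, SE 0.28, adjusted p = 4.32e-04, edgeR). In PlaB it had 14.0, 16.6 and 16.0 CPM in WT, 1.44, 2.15 and 5.88 in *Obox4* KO and 0.0433, 0.116 and 0.0412 in *Dux* KO, without overlap. *Gm21761*, with its start inside a 3′ LTR on chromosome 13, went from 473, 477 and 502 CPM in PlaB WT to 0 in the *Dux* KO libraries, at least 23629-fold lower. Copies of the *Zscan4*, *Usp17l*, *Pramef* and *Gm4340* families are near-identical, and counts of single members are uncertain.

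Near OBOX4-only loci, *Gm16026* and *Trim75* rose at 48 h and fell in both single KOs. *Gm16026*, whose start lies inside a 5′ LTR at chr1:85266398-85266889, was at 0.163, 0.0350 and 0.196 CPM at 0 h and 1.86, 1.99 and 1.48 CPM at 48 h (3.71, SE 0.43, adjusted p = 3.19e-04, edgeR). In PlaB it had 14.0, 14.0 and 13.4 CPM in WT, 0.707, 0.580 and 1.76 in *Obox4* KO (−3.79, SE 0.40, adjusted p = 1.05e-04) and 0.0216, 0 and 0 in *Dux* KO. *Trim75*, a tripartite motif gene 8932 bases from a 3′ LTR, had 29.7, 28.4 and 30.4 CPM in PlaB WT, 6.64, 6.21 and 13.6 in *Obox4* KO (−1.74, SE 0.29, adjusted p = 9.86e-04) and 0.216, 0.232 and 0.206 in *Dux* KO (−7.06, SE 0.40, adjusted p = 1.77e-07). *Popdc3*, a Popeye domain gene whose start lies inside an LTR, had 8.48, 8.32 and 7.97 CPM in WT, 2.91, 2.49 and 4.97 in *Obox4* KO (−1.26, SE 0.34, adjusted p = 0.0153) and 1.06, 0.851 and 1.19 in *Dux* KO (−2.99, adjusted p = 8.53e-05). Its rise at 48 h (1.68, adjusted p = 0.00743) was lost on leaving out any 1 library but 0 h replicate 3, and that of *Trim75* (1.52, adjusted p = 0.00363) on leaving out any of the 6. *Grid2ip* was called higher at 48 h (1.56, SE 0.24, adjusted p = 0.00203) and was at −0.66 in PlaB *Dux* KO (adjusted p = 0.179, not called).

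**Figure D5:**
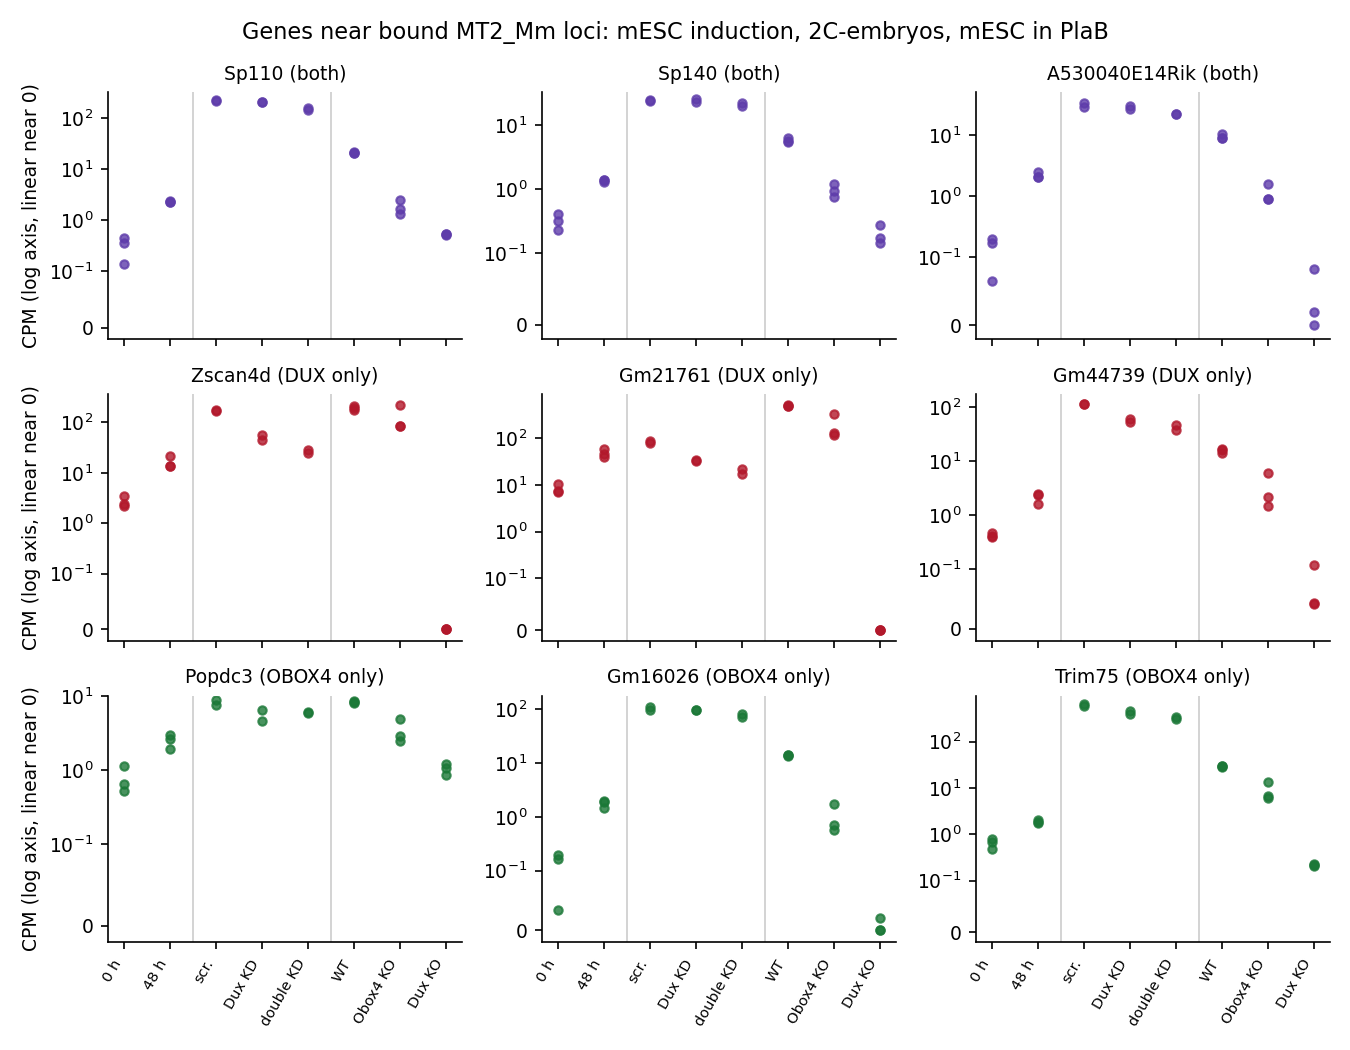
Level in CPM (log scale above 0.1) of 9 named genes near loci bound by both (top), by DUX only (middle) and by OBOX4 only (bottom) in each library of 8 groups. *Sp110*, *Sp140*, *A530040E14Rik* and *Gm16026* are lower in all PlaB *Obox4* KO libraries than in any WT library, and *Zscan4d* is at 0 in the *Dux* KO libraries.

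Of 46 2C-genes in the fixed list, 12 had an MT2_Mm locus within 10000 bases and 11 of these were tested. At 48 h 10 of the 11 were called higher (median log2 fold change 2.62) against 29 of 34 in the whole list, in double KD 2C-embryos 8 were called lower (−1.99) against 26 of 42, in PlaB *Obox4* KO 3 (−0.69) against 13 of 39, and in PlaB *Dux* KO 11 against 38 of 39. The list members with a nearby locus comprised *Sp110* and *Sp140* at 1 locus bound by both, *Zscan4d*, *Gm4340*, *Gm6763* and *Pramef25* at DUX-only loci, and *BC080695*, *Pramef6*, *Usp17lc*, *Usp17ld*, *Zscan4b* and *Zscan4e* at unbound loci. No member had an OBOX4-only locus nearest.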

How the data were processed

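Per the labels and methods, the authors demultiplexed reads with bcl2fastq 2.20 and trimmed them with fastp 0.23.2, aligned RNA with STAR 2.7.9a and CUT&RUN with Bowtie2 2.4.1 at its default settings to GRCm38.p6 (mm10), and called peaks with MACS3 3.0.0a6 per replicate. The deposited gene counts are whole-number counts from featureCounts 2.0.1 without multi-mapping reads. The deposited repeat tables hold estimated counts, with multi-mapping reads shared as fractions and all loci of a name summed, and were rounded to whole numbers here. Those of the blastomeres likewise hold fractional counts. The deposited peak lists give fold enrichment, −log10 p, −log10 q and summit position for each peak, and peak overlap was used without rescaling.

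MT2_Mm positions came from the repeat table, which was used with chromosomes 1 to 19, X and Y. OBOX4 peaks of 3 lists were merged and kept where at least 2 lists contributed. Loci within 50 bases of MERVL-int on the same strand were called 5′ or 3′ LTRs. Counts were tested with edgeR 4.0.16 (R 4.3.3, quasi-likelihood, TMM, filterByExpr, 1 fit per experiment, Benjamini-Hochberg adjustment) and called where the adjusted p did not exceed 0.01 and the fitted log2 fold change was 1 or more in size. DESeq2 1.42.0, no filter, the replicate number as a block, the gene table's scaling, other distances, peak thresholds and OBOX4 lists, and leaving out each replicate were the alternatives. Shares of marked loci were compared over peak lists by exact permutation tests (Python 3.11.15, scipy 1.17.1) at an adjusted p of at most 0.05. The tests were checked on simulated data. No deposited column of sample values was left unused (0), and 3 IgG samples with conflicting labels were not assigned.

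The named genes have a start within 10000 bases of a bound locus and are, per class, up to 5 called higher at 48 h with the largest rise and up to 5 called lower in double KD 2C-embryos with the largest fall (mean count of at least 20, groups not overlapping), with 2C-list members near a locus and genes the study names within 50000 bases of a bound one. Of 55487 gene IDs, 55141 had a symbol in the reference table. The members, classes and gene lists were chosen with earlier results of these data known.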

Additional observations from a re-analysis of the deposited data

Results flagged for a closer look

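For MT2_Mm RNA in PlaB-treated mESCs, the change with both factors lost was set against the sum of the single losses. The contrast, chosen after the values were seen, was 2.04 on the log2 scale (SE 0.37, adjusted p = 0.0126 over all repeat names, edgeR's quasi-likelihood test), which missed the adjusted threshold of 0.01. The 3 double KO libraries (902, 807 and 1445 CPM) were all above the 3 *Dux* KO libraries (746, 781 and 765 CPM), and the contrast was 2.45 without *Obox4* KO replicate 3 and 1.74 without double KO replicate 3, both of them called. With the gene table's scaling double KO against *Dux* KO reversed to −0.19. The *Obox4* copies were already at 0.0774 to 0.130 CPM in *Dux* KO and at 0 to 0.192 CPM in double KO, so *Dux* KO libraries had also lost *Obox4* RNA, and the contrast does not measure an added loss of *Obox4*.

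The repeat table also lists 26 MT2_Mm loci on unplaced scaffolds, which the report does not use. Of these, 11 (42.3%) had a DUX peak and 10 (38.5%) an OBOX4 peak, with 9 bound by both and 14 by neither, where a count of 0 would have allowed a share of up to 11.5%. No control peak list was used here for these positions.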

How the results depend on the processing

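Over 158 alternatives for MT2_Mm RNA, 133 kept direction and side of the threshold, 12 lost the call, 10 gained it and 3 reversed. The gene table's scaling gave 1.23 at 48 h (call lost), −1.04 for 2C double KD, 2.85 for morulae and 1.81 for the PlaB contrast of both losses (calls gained), and −0.19 for PlaB double against *Dux* KO (reversed). DESeq2 called morulae (2.52) and blastomere KO (−1.08), the latter also without the low-count filter (−1.08). With the replicate block the 48 h change was 1.29 and no longer called. Leaving out single libraries gave 1.09 to 1.40 at 48 h, −1.11 to −0.81 for 2C double KD, −0.0040 to 0.30 for the 2C contrast of both losses, 1.93 to 2.92 for morulae, −0.36 to 0.84 for Het blastomeres, −1.99 to −1.41 for PlaB *Obox4* KO and 1.74 to 2.45 for the PlaB contrast.

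Of 216 alternative counts of nearby genes, 163 stayed within 1.5 times. The others follow in the order both, DUX only, OBOX4 only, neither. At 48 h they were 5 for both (DESeq2, no filter, and 50000 bases), 17 (50000), 3 (replicate block), 16 (any OBOX4 list), 5 (all 3 lists) and 5 (lists 2 and 3), then 14 (block) and 65 (50000), with 2 to 3 and 15 to 20 for the last 2 classes without single libraries. In double KD they were 2 (5000 bases), 9 (any list), 3 (lists 2 and 3) and 3 to 3 without single libraries, then 37 (50000), 5 (50000) and 17 (any list), and 183 (50000). In PlaB *Obox4* KO they were 9 (all lists) and 8 (lists 2 and 3), 34 (50000), then 14 (DESeq2), 12 (no filter), 3 (5000), 16 (50000) and 28 (any list), and 153 (50000), with 9 to 25, 4 to 13 and 57 to 108 for the last 3 classes without single libraries. In PlaB *Dux* KO they were 11 (all lists) and 10 (lists 2 and 3), 69 (50000), 32 (50000) and 47 (any list), and 268 (50000).

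For the marks, 206 of 228 alternatives of the *Obox4* KO effect, 203 of 228 of the PlaB effect and 214 of 216 of their interaction kept direction and side of the threshold. The *Obox4* KO calls for H3K27ac at both, H3K4me3 at both and H3K4me3 at neither were lost at −16.0, −3.73 and −0.337 points with equal numbers of peaks, at −18.0, −4.82 and −0.683 with peaks within 500 bases, and at −19.1, −5.04 and −0.377 with the replicate block. There the exact sign-flip test of 6 pairs cannot go below an unadjusted p of 0.0312, and each of the 3 had an adjusted p of 0.250. Without single lists they ran from −21.7 to −16.8, −5.59 to −4.61 and −0.439 to −0.333. With −log10 q of at least 5 the first was −6.36, and H3K27me3 was called at 1.22 (DUX only), 1.43 (OBOX4 only) and 0.361 points (neither). The PlaB effect on H3K27ac at neither was called at 3.55 with lists 2 and 3 and 3.57 with all 3 lists. At the stricter q the PlaB effect on H3K4me3 at both turned to −2.19 points and was called (adjusted p = 0.0400, exact permutation test). This and other PlaB effects that were uncalled in the main setting changed sign. These were H3K4me3 at both (−0.219 with equal peaks, −2.19 at the stricter q, −0.758 with lists 2 and 3, −0.379 with all 3 lists, −0.219 to 0.768 without single lists), H3K4me3 at OBOX4 only (−0.391 at the stricter q, −0.260 within 500 bases), H3K27me3 at OBOX4 only (0.260 with equal peaks, 0.651 at the stricter q, 1.64, 0.701 and 1.77 with lists 2 and 3, any and all lists), H3K27me3 at DUX only (0.586 at the stricter q, −2.96 to 0.0799 without single lists) and H3K27me3 at neither (−0.212 within 500 bases, −0.0229, −0.117 and −0.0229 with lists 2 and 3, any and all lists, −0.663 to 0.526 without single lists). The H3K27me3 interaction turned to 2.63 at both and 0.260 at OBOX4 only at the stricter q. The cause was not tested for any of these.

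Same-numbered replicates did not deviate together in every pair of any experiment, so the replicate number was not used as a pairing in the main tests. For the marks, WT lists without and with PlaB did deviate together (correlations of 0.652, 0.555 and 0.719 for replicates 1 to 3). WT and KO lists with PlaB had −0.528, 0.159 and −0.501, so whether some lists are paired was not settled. The block changed no call other than those given here and 12 of 161 calls of named genes. Placement of reads among identical LTRs, 1 DUX list, 2 libraries per embryo group and permutation tests over 12 lists limit what can be resolved.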
